A study of Mus musculus with 2 samples.

Results

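Steroid hormone receptors and the proteins that fold and assist them were followed in the mouse uterus before implantation. The set was chosen by gene symbol from the deposited table and has 9 named genes: the receptors Pgr, Esr1, Nr3c1 and Nr3c2, the membrane-associated progesterone receptor components Pgrmc1 and Pgrmc2, the cochaperones Fkbp4 and Fkbp5, and the coactivator Ncoa1. Of these, 8 were matched to a row among the 14678 genes of the table, and Nr3c2, the mineralocorticoid receptor, was not analysed here. Both groups were double transgenic females (VEGFtetO/tetO/beta-AKtg/wt), in which a ubiquitously expressed tetR-Krab fusion protein can block a Vegfa gene that carries tet operators. The Dox+ group ate chow with doxycycline, which releases the repressor, and the Dox- group ate regular chow after doxycycline was withdrawn at 3 to 4 weeks of age. The females were littermates of 9 to 10 weeks, mated to VEGFtetO/tetO males, and their uteri were taken at gestation day 2.5. The RNA of 3 uteri was pooled into 1 library a condition, so the tag counts have no replicate and no test between conditions was made. The paper also measured some genes, VEGF and Ihh among them, by quantitative PCR, and those measurements were not used here. The repressor is expressed in all tissues and whole uteri were used, so that fewer cells of a type and less RNA per cell cannot be told apart.

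Steroid receptors are transcription factors that wait in a complex with HSP90 and its cochaperones until a hormone binds them. In the early pregnant uterus, estrogen from the ovary drives epithelial growth, and progesterone then stops that growth and prepares the stroma for the embryo. FKBP52, encoded by Fkbp4, raises the hormone response of the progesterone and glucocorticoid receptors. FKBP51, encoded by Fkbp5, competes for the same place on HSP90, lowers hormone binding, and is itself a well-known target gene of both receptors. Pgr is in turn a known target of the estrogen receptor in many cells of the uterus.

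The windows around the start sites of the 3 genes called different between the libraries are given here, to show which letters of the receptors' own half-sites they hold. Each runs from 250 bases before to 50 bases after a RefSeq start on GRCm38.p6, a later build than the mm9 used for the tags. The capitals mark half-sites, GGTCA or TGACC for the estrogen receptor and AGAACA or TGTTCT for the progesterone and glucocorticoid receptors, on either strand. The first Esr1 window holds 1 of them, at bases 16 to 20 after the start, and the other 3 windows shown hold none. Over all 32851 windows of the RefSeq table, 40.5% hold GGTCA or TGACC and 19.0% hold AGAACA or TGTTCT. The full palindromes join a half-site to its reverse complement across 3 free bases, and so overlap the half-sites counted. That of the estrogen receptor lies in 0.07% of all windows and that of the progesterone and glucocorticoid receptors in 0.00913%. Neither lies in the 9 windows searched for 8 genes of the set, Nr3c2 among them. Nr3c1 was left out of this search. No match says only that these letters are not in these windows. The Pgr window has 43.7% G and C with 6 CpG dinucleotides and the Fkbp5 window 70.7% with 32, where the median window has 52.7% G and C.
Pgr promoter, chr9:8899583-8899882, plus strand: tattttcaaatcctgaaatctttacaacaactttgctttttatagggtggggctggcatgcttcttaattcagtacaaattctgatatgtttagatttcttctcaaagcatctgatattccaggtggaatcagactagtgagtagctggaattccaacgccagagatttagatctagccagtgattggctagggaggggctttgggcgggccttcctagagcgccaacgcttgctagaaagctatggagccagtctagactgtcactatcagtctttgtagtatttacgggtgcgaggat
Esr1 promoter at its first start, chr10:4611739-4612038, plus strand: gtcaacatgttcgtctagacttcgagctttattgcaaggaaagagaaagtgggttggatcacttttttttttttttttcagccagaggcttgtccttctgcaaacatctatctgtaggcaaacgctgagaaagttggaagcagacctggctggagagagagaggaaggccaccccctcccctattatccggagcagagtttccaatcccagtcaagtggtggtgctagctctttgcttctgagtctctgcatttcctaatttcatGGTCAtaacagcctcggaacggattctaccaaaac
Esr1 promoter at its second start, chr10:4709908-4710207, plus strand: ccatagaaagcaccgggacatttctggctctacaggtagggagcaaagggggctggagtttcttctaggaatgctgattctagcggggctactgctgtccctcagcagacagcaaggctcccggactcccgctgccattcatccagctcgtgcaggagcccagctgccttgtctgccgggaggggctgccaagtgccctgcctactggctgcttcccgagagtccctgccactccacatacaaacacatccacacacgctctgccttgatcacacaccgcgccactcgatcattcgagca
Fkbp5 promoter, chr17:28486100-28486399, minus strand: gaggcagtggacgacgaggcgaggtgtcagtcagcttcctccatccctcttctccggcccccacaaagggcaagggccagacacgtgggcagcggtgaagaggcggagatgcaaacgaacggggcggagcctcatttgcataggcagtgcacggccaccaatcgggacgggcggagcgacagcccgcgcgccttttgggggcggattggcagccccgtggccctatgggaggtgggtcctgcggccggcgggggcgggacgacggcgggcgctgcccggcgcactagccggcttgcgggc

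The Dox+ library held 5985925 clean tags and the Dox- library 5844313, as recovered from the deposited counts and TPM values, and 74.1% and 72.2% of them were counted in genes. A level is given as the number of tags and as TPM, tags per 1000000 clean tags, with no correction for length. A difference is the ratio of TPM, Dox- over Dox+, with an exact Clopper-Pearson 95% interval that covers counting error only. Vegfa, the repressed gene, had 41.3 TPM in Dox+ and 21.4 TPM in Dox-, 1.93-fold lower (95% interval 1.55 to 2.41). A gene was called different where its combined count was at least 200 and its ratio at least 1.5-fold. All 8 genes passed the filter on counts. Of the 6547 genes that passed it in the whole table, 29.9% were called, 15.2% higher and 14.7% lower in Dox-. Of the 8 genes, 2 were called higher, Pgr and Esr1, and 1 was called lower, Fkbp5. With 8 genes, 3 calls lie close to this background, and the count is no result about the set.

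Pgr, the nuclear progesterone receptor (chromosome 9, 8900419 to 8965425 on NCBIM37, the assembly also called mm9), had 687 tags in Dox+ and 1251 in Dox-. These counts equal 114.77 and 214.05 TPM, and the Dox- level was 1.87-fold higher (95% interval 1.70 to 2.05). The whole interval lies above 1.5-fold. Of the genes compared, 6.17% had a ratio at least as high as that of Pgr.

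Esr1, the estrogen receptor alpha (chromosome 10, 5340927 to 5734948), had 165 tags in Dox+ and 262 in Dox-, or 27.56 and 44.83 TPM. It was 1.63-fold higher in Dox- (1.33 to 1.99), and 11.3% of the genes compared had a ratio at least as high. Its interval reaches below 1.5-fold, so that counting error alone leaves Esr1 on either side of the threshold. Nr3c1, the glucocorticoid receptor, had 134 tags in Dox+ and 171 in Dox-, or 22.39 and 29.26 TPM, a ratio of 1.31 (1.04 to 1.65) that was not called. All 3 nuclear receptors thus had ratios above 1 with intervals above 1. When the exact test of edgeR was run on the 2 libraries with an assumed coefficient of variation (0.2), neither Pgr nor Esr1 was called at an FDR below 0.05. That variation was set by hand and not measured, so it decides which genes pass, and the test compares the libraries, not the conditions.

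**Figure D1:**
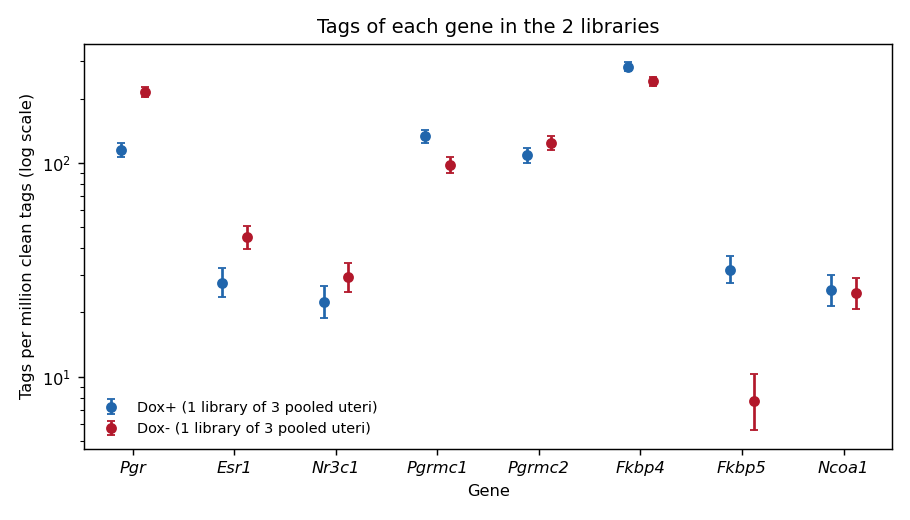
Tags per 1000000 clean tags (TPM, log axis) of the 8 genes in the Dox+ and Dox- libraries, with exact Poisson 95% intervals of the counts as bars. Pgr and Esr1 sit higher and Fkbp5 lower in Dox-, and the points of Ncoa1 lie side by side at 25.39 and 24.64 TPM.

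The membrane-associated components are small heme-binding proteins that take part in nonclassical progesterone responses. Pgrmc1 (chromosome X, 34138201 to 34146074) had 800 tags in Dox+ and 573 in Dox-, or 133.65 and 98.04 TPM. It was 1.36-fold lower in Dox- (1.22 to 1.52), short of the 1.5-fold threshold. Pgrmc2 (chromosome 3, 40870248 to 40886968) had 650 tags in Dox+ and 724 in Dox-, or 108.59 and 123.88 TPM, a ratio of 1.14 (1.03 to 1.27). The intervals of Pgrmc1 and Pgrmc2 lie on opposite sides of 1.

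The 2 cochaperones are compared next. Fkbp4 (chromosome 6, 128379753 to 128388695) had 1684 tags in Dox+ and 1406 in Dox-, or 281.33 and 240.58 TPM, and was 1.17-fold lower in Dox- (1.09 to 1.26). Fkbp5 (chromosome 17, 28536040 to 28654469) had 190 tags in Dox+ and 45 in Dox-, or 31.74 and 7.7 TPM. It was 4.12-fold lower in Dox- (2.97 to 5.84), and 0.993% of the genes compared had a ratio at least as low. Ncoa1, the steroid receptor coactivator SRC-1 (chromosome 12, 4247363 to 4484060), had 152 tags in Dox+ and 144 in Dox-, a ratio of 0.970 (0.767 to 1.23).

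**Figure D2:**
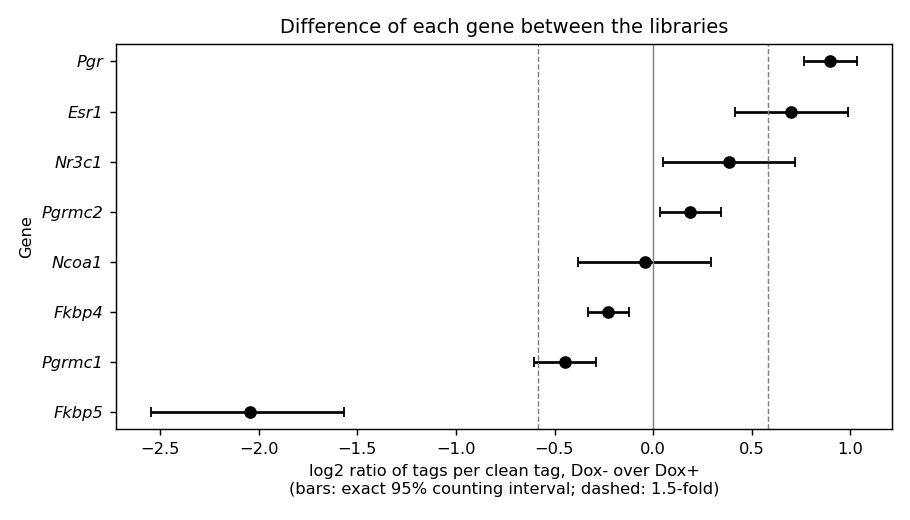
The log2 ratio of tags per clean tag, Dox- over Dox+, of each gene with its exact 95% counting interval, with dashed lines at 1.5-fold. Fkbp5 lies at -2.04 and Pgr at 0.90, both with intervals outside the dashed lines, and the interval of Ncoa1 spans 0.

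**Figure D3:**
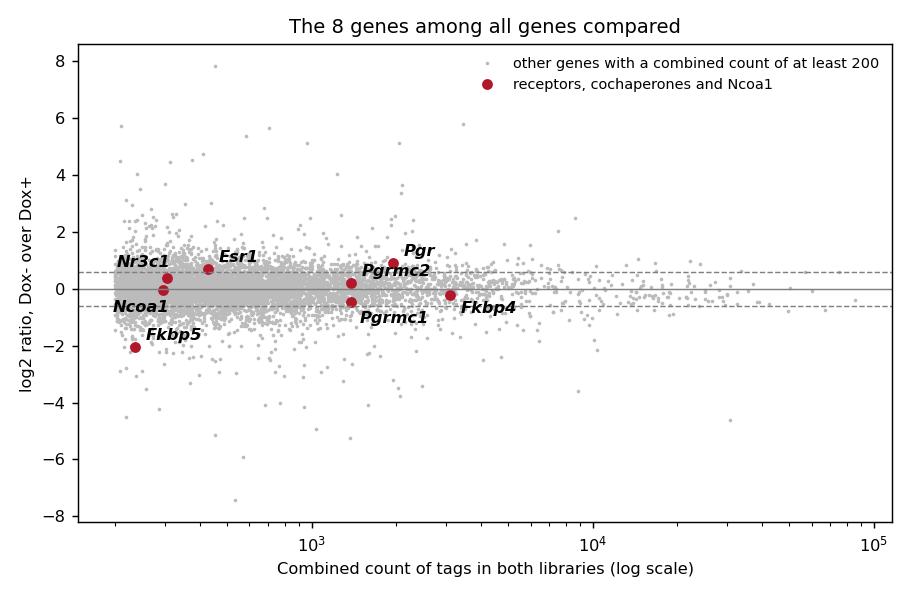
The log2 ratio against the combined count of tags (log axis) for all 6547 genes compared, with the 8 genes in red and dashed lines at 1.5-fold. Nr3c1, Ncoa1, Pgrmc1, Pgrmc2 and Fkbp4 lie within the dashed lines, Pgr and Esr1 above them and Fkbp5 below.

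The ratio of the tags of a pair of genes within a library does not depend on library size, and its change between the libraries does not depend on gene length. The ratio in a single library carries the lengths of both genes and does not say which transcript was more abundant. Of the 28 pairs, 22 changed with a 95% counting interval that left out 1, and 6 did not. The pairs recombine the ratios of the same 8 genes, and the share among pairs of all genes was not computed. Their number is therefore no further result about the set. The tag ratio of Fkbp4 to Fkbp5 was 8.86 in Dox+ and 31.2 in Dox-, a 3.53-fold change (2.51 to 5.03). The tag ratio of Pgr to Fkbp5, a receptor and the cochaperone that restrains it, was 3.62 in Dox+ and 27.8 in Dox-, a 7.69-fold change (5.45 to 11.0). That of Nr3c1 to Fkbp5 changed 5.39-fold (3.57 to 8.19), from 0.705 to 3.80. Every pair with Fkbp5 had an interval that left out 1, which follows from its own interval lying below those of the other genes.

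Among the receptors, the tag ratio of Pgr to Esr1 was 4.16 in Dox+ and 4.78 in Dox-, a 1.15-fold change (0.918 to 1.43), so a joint change was not told apart from an unequal one at this depth. Pgr to Nr3c1 went from 5.13 to 7.32, a 1.43-fold change (1.11 to 1.84). Pgr to Pgrmc1, the nuclear against the membrane-associated progesterone receptor, went from 0.859 to 2.18, a 2.54-fold change (2.20 to 2.94). Pgrmc1 to Pgrmc2 went from 1.23 to 0.791, which is 0.643 of the Dox+ value (0.552 to 0.750). The other pairs whose intervals held 1 were Esr1 with Nr3c1, Nr3c1 with Pgrmc2 and with Ncoa1, and Ncoa1 with Pgrmc2 and with Fkbp4.

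**Figure D4:**
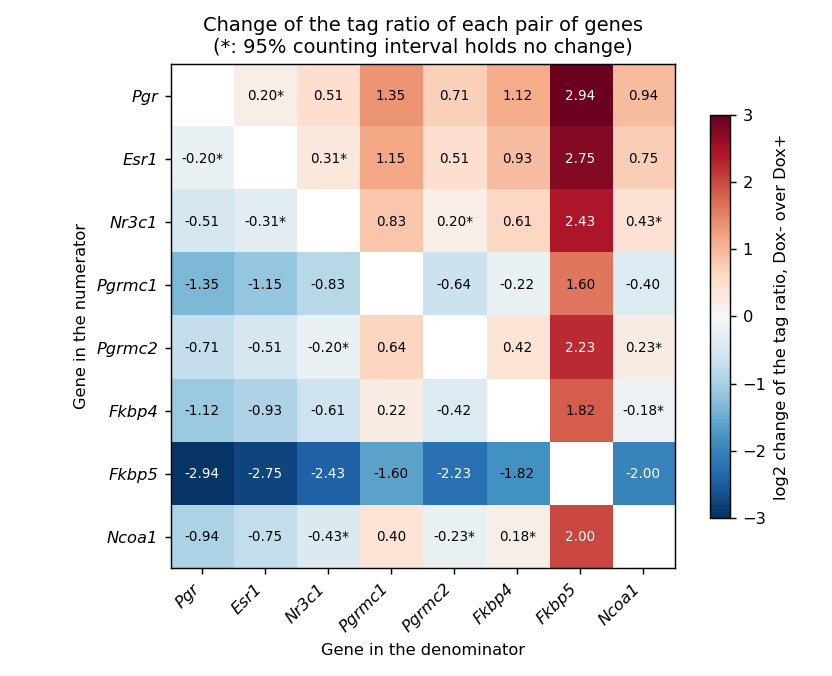
The log2 change, Dox- over Dox+, of the tag ratio of each row gene to each column gene, where an asterisk marks a 95% counting interval that holds no change. The Fkbp5 row is blue throughout, and 6 of the 28 pairs carry an asterisk.

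The wider pathway was followed with 6 gene lists written by hand. In all 11 matched genes of other steroid and membrane progestin receptors, Serbp1 alone reached the filter. Serbp1, an RNA-binding partner of PGRMC1, had 2887 tags in Dox+ and 3671 in Dox-, a ratio of 1.30 (1.24 to 1.37) that was not called. The estrogen receptor beta gene Esr2, with 20 and 21 tags, and the membrane estrogen receptor gene Gpr30, with 25 and 27, were under the filter, with intervals that held 1.

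In the HSP90 machinery and other cochaperones, the log2 ratios ran from -0.95 to 0.77, and none was as low as that of Fkbp5. Of 21 genes over the filter, 1 was called higher and 1 lower, beside 15.2% and 14.7% of all genes, and the median log2 ratio was 0.14, where that of all genes compared was 0.03. Hsp90ab1, the constitutive HSP90, had 8989 tags in Dox+ and 7599 in Dox-, a ratio of 0.866 (0.840 to 0.893). Hsp90aa1, the inducible form, had 1763 and 2573 tags, a ratio of 1.495 (1.41 to 1.59) just under the threshold. Dnaja1, an HSP40 that loads receptors onto HSP70, had 5147 and 3779 tags, a ratio of 0.752. Ppid, which encodes cyclophilin 40, another immunophilin of the receptor complex, was 1.71-fold higher (1.55 to 1.88). Fkbp8, an FKBP anchored in mitochondrial membranes, was 1.93-fold lower (1.77 to 2.10).

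Of 29 other coactivators and corepressors over the filter, 2 were called higher and 3 lower, beside 15.2% and 14.7% of all genes, with a median log2 ratio of 0.13. Ncoa7 was 2.24-fold higher in Dox- (1.87 to 2.69), with 178 tags in Dox+ and 389 in Dox-. Ube3a, a ubiquitin ligase that also binds receptors, was 2.12-fold higher (1.68 to 2.69). Smarca2, the ATPase BRM of the SWI/SNF remodeler, was 2.73-fold lower (2.28 to 3.30), and Gps2, a subunit of the NCoR corepressor complex, 1.73-fold lower (1.38 to 2.18). The genes named for the most tags, Ddx5, Phb2 and Carm1, had 4747, 932 and 833 tags in Dox+ and 5780, 993 and 815 in Dox-, and none was called. In the family of Ncoa1, Ncoa2 had 99 and 93 tags and Ncoa3 118 and 132, with intervals that held 1.

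Genes known to respond to each hormone were counted next. Their lists were written with earlier results of these libraries known, so their counts are not independent evidence of a direction. The paper gives no hormone levels for these females, and it reports that VEGF repression lowered ovulation. Whether the supply of hormone or the activity of the receptors differed between the pools was not tested. Of 17 progesterone-responsive uterine genes over the filter, 13 were called lower in Dox- and 2 higher, beside 14.7% and 15.2% of all genes. Their median log2 ratio was -1.52, with the Dox- count of Lrp2 set from 0 to 3. Hoxa10 and Hoxa11, homeobox genes that progesterone maintains in the stroma, had 3120 and 2573 tags in Dox+ and 1060 and 785 in Dox-, and were 2.87-fold (2.68 to 3.08) and 3.20-fold (2.95 to 3.47) lower. Sox17, an epithelial transcription factor, was 3.32-fold lower (3.03 to 3.65). Ihh, the signal that the epithelium sends to the stroma under progesterone, was 17.1-fold lower (12.2 to 24.4), and Fst, the activin antagonist follistatin, 16.1-fold lower (11.9 to 22.3). Lrp2, the endocytic receptor megalin, had 534 tags in Dox+ and none in Dox-, where a count of 0 allows up to 3 tags or 0.513 TPM, and was at least 173.8-fold lower. The genes called higher were Cebpb, a transcription factor of decidualization, at 2.75-fold (2.38 to 3.18), and Alox15, a lipoxygenase, at 1.99-fold (1.70 to 2.34).

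Estrogen-responsive uterine genes lay on the other side. Of 20 over the filter, 12 were called higher in Dox- and 1 lower, beside 15.2% and 14.7% of all genes, and the median log2 ratio was 1.12. The gene called lower was Vegfa itself, and without it 12 of 19 were higher and 0 lower, with a median of 1.36. Inhbb, the activin beta-B subunit, was 55.2-fold higher and Lcn2, a secreted lipocalin, 35.5-fold higher. Sprr2f, a cornified envelope gene of the luminal epithelium, had 904 tags in Dox+ and 2936 in Dox-, 3.33-fold higher (3.09 to 3.59), and near-identical Sprr2 genes make its count uncertain. Ckb, the creatine kinase long known as the estrogen-induced protein, had 8071 and 6534 tags, a ratio of 0.829 (0.802 to 0.857), and Igf1 had 1749 and 1857, a ratio of 1.09 (1.02 to 1.16). Neither was called.

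Glucocorticoid-responsive genes, many of which the progesterone receptor also controls, had 14 members over the filter, of which 8 were called lower and 0 higher, beside 14.7% and 15.2% of all genes. Without the filter on counts, 3 were higher, and by the rule of the study 1 was. Their median log2 ratio was -0.86. The log2 ratio of Fkbp5, which is not in the list, was -2.04, and a link between it and these genes was not tested. Mt2, a metal-binding metallothionein, had 8168 tags in Dox+ and 660 in Dox-, 12.1-fold lower (11.2 to 13.1). Sult1a1, a phenol sulfotransferase, was 7.76-fold lower (5.93 to 10.3), and Txnip, the thioredoxin inhibitor, 2.18-fold lower (1.99 to 2.38). Glul, the glutamine synthetase, had 1092 and 773 tags, a ratio of 0.725 (0.660 to 0.796) that was not called.

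**Figure D5:**
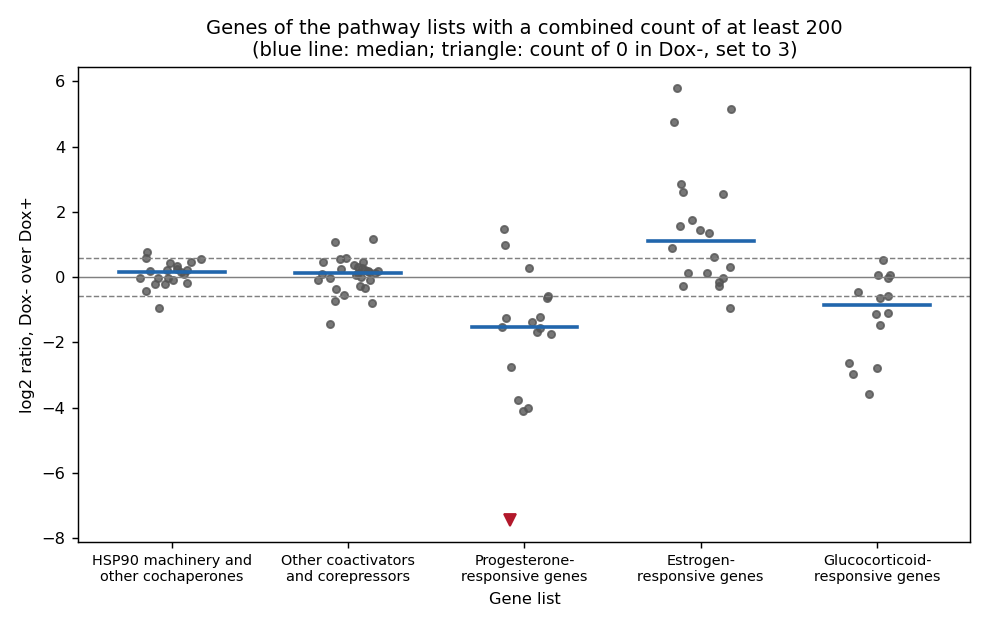
The log2 ratio, Dox- over Dox+, of each gene over the filter in 5 pathway lists, with the median as a blue line, dashed lines at 1.5-fold and a triangle for Lrp2, whose Dox- count of 0 was set to 3. The medians are 0.14 and 0.13 for the cochaperone and coregulator lists, -1.52 for progesterone-responsive, 1.12 for estrogen-responsive and -0.86 for glucocorticoid-responsive genes.

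Markers of the cell types of the uterus were counted as well, and the epithelial and stroma lists held calls in both directions. Over all genes compared, 15.2% were called higher and 14.7% lower. All 12 listed epithelial markers were matched and none was at 0. Their tags summed to 7784 in Dox+ and 10860 in Dox-, 1.43-fold higher. Of the 11 over the filter, 4 were called higher and 2 lower. The 10 smooth muscle markers summed to 49493 and 34243 tags, a ratio of 0.709, with 5 called lower. The 10 stroma markers summed to 56306 and 68208 tags, a ratio of 1.24. Most of these tags came from the collagens Col1a1, Col1a2 and Col3a1, and the other 7 markers summed to 9982 and 7787, a ratio of 0.799 (0.776 to 0.823) in the opposite direction, a sum added after seeing the data. Of the 10, the genes called were Col1a2 and Lum, higher, and Vim, Hand2 and Hoxa11, lower. Hand2 and Hoxa11 are also in the progesterone-responsive list. They had 985 and 2573 tags in Dox+ and 143 and 785 in Dox-, and the lower sum of the 7 markers depends on them. Of the rest of the 7, Vim had 2612 and 1680 tags, Pdgfra 394 and 286 and Thy1 723 and 707. Dcn, with 1146 and 1407, and Lum, with 1549 and 2779, went up. The sum of 7 therefore does not show that stroma markers other than collagens fell as a group. The 9 endothelial markers summed to 1525 and 983 tags, a ratio of 0.660, with 4 over the filter and 3 called lower. Cdh5 had 446 and 216 of these tags. Pecam1, Eng and Kdr had ratios of 1.07, 1.16 and 1.74, with intervals that held 1. The 10 leukocyte markers summed to 701 and 882 tags and the 4 matched adipocyte markers to 495 and 323. The 4 matched skeletal muscle markers summed to 3473 and 1269, of which Acta1 alone had 3385 and 1241. Ckm, Tnnt3 and Mylpf were under the filter. The 3 matched markers of oviduct and ovary summed to 40 tags in each library, but Ovgp1 had 25 in Dox+ and 2 in Dox- and Foxj1 3 and 25. The 3 of Schwann cells and nerve summed to 12 and 16, with Sox10 at 0 in Dox+. The part of cell composition in each gene's result was not tested.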

How the data were processed

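The deposited counts are whole tags per gene in 1 Dox+ and 1 Dox- library, each of 6 µg of total RNA of 3 pooled uteri. According to the study's methods, the authors removed adaptor-only, low quality and single-copy tags and assigned unambiguous tags to mouse reference transcripts of mm9. The aligner and the enzyme are not given in the sources used here, and CASAVA is named in the submitters' processing notes. The labels describe fragmented mRNA and the paper tag profiling, a difference that was not resolved, so levels are not compared between genes. Tag ratios of pairs of genes are given for their change between the libraries. Sense and antisense tags were both searched, and whether a gene's count holds both is not given in the sources used here, so genes with an antisense partner, such as Hoxa11, are uncertain. The deposited TPM values were computed by the authors per 1000000 clean tags, with 0.01 at a count of 0. They were used to recover the clean tags from genes with at least 2000 tags. The columns of the authors' comparison (ratios, P-value and FDR) were not used.

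The members and lists were chosen with earlier results of these data known. Gene IDs of all 8 genes matched RefSeq. A gene without a tag in 1 library was set to 3 tags for its ratio, which is then a bound. Named are all genes of the set, Vegfa, the 3 genes of each list with the most tags, the 2 called genes with the largest fold in each direction and at least 3 tags in both libraries, and any gene called as a bound. Genes named outside this rule (Esr2, Gpr30, Ncoa2, Ncoa3, the markers named singly and those in the closing section) were chosen after their values were seen. Intervals were checked on simulated counts. Alternatives were other library sizes (counted tags, TMM, median ratios), no filter, a pseudocount of 1, the rule of the study (test of Audic and Claverie, FDR below 0.05, absolute log2 ratio above 0.5), and the exact test of edgeR with an assumed coefficient of variation of 0.2. Both tests compare the 2 libraries, not the conditions. Python 3.11.15, scipy 1.17.1, R 4.3.3 and edgeR 4.0.16 were used. Gene positions are from the GENCODE annotation of NCBIM37.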

Additional observations from a re-analysis of the deposited data

How the results depend on the processing

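The log2 ratios of the 8 genes under other library sizes and a pseudocount stayed within their counting intervals in 32 of 32 values, and none changed sign. The calls of Pgr, Esr1 and Fkbp5 were the same under each library size, without the filter and by the rule of the study. With the assumed variation of the edgeR test, the call of Fkbp5 stayed and those of Pgr and Esr1 did not. The scalings moved the median log2 ratio of all genes compared by at most 0.038. In the edgeR test, which by construction adds an assumed spread between pools (0.2), 0 of the 8 genes were called higher, and over all genes 147 were called higher and 174 lower. In that setting the cochaperone list had 0 higher and 0 lower, the coregulator list 0 higher and 1 lower, and 1 progesterone-responsive gene was higher. For the responsive genes it also gave 0 estrogen-responsive genes lower and 5 glucocorticoid-responsive genes lower. Without the filter, 2869 genes were called higher and 2830 lower, since more genes were compared. Then 1 of the other receptors was higher and 2 lower, 2 cochaperones were lower, 4 coregulators were higher, 2 estrogen-responsive genes were lower and 3 glucocorticoid-responsive genes were higher. With the sum of the counted tags as library size 2 cochaperones were higher, since Hsp90aa1 lay just under the threshold. By the rule of the study 3 cochaperones, 4 coregulators and 1 glucocorticoid-responsive gene were higher, and the cause was not tested. Of all 96 alternative counts, 74 stayed within 1.5 times the count reported. No paired analysis was possible because each condition has 1 library. The depth limits genes with few tags, and counting intervals leave out the spread between animals, which cannot be estimated here.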

Other observations

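The genes named here were chosen after their values were seen, and those of the first 2 paragraphs were under the filter on counts. Among the membrane progestin receptors, Paqr6 had 22 tags in Dox+ and 2 in Dox-, 10.7-fold lower (95% interval 2.64 to 94.2), and Paqr5 had 7 and 18 tags, 2.63-fold higher (1.05 to 7.46). Paqr7, Paqr8 and Paqr9 had 17 and 7, 9 and 9, and 4 and 2 tags, with intervals that held 1. Nrip1, the corepressor RIP140, had 18 and 69 tags, 3.93-fold higher (2.31 to 7.01).

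Among the progesterone-responsive genes under the filter, Areg, the growth factor amphiregulin, had 31 tags in Dox+ and none in Dox-. With 3 tags in place of 0, Areg was 10.1-fold lower. Calca, the calcitonin gene, and Irg1, an aconitate decarboxylase, each had 37 tags in Dox+ and none in Dox-, 12.04-fold lower by the same replacement. Il13ra2, a decoy receptor for interleukin 13, had 180 and 6 tags, 29.3-fold lower (13.2 to 80.9). Wnt4 went the other way, with no tag in Dox+ and 18 in Dox-, 6.145-fold higher with 3 tags in place of 0.

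The glucocorticoid-responsive list held genes on both sides. Among those over the filter, Sgk1, a kinase that controls sodium transport, had 1198 tags in Dox+ and 187 in Dox-, 6.26-fold lower (5.36 to 7.34). Tsc22d3, the glucocorticoid-induced leucine zipper, had 561 and 198, 2.77-fold lower (2.35 to 3.27). Per1, Nfkbia and Angptl4 had 204 and 208, 726 and 745, and 513 and 495 tags, with intervals that held 1, and Cebpd had 224 and 314, a ratio of 1.44 (1.21 to 1.71). Under the filter, Zbtb16, the zinc finger factor PLZF, had 30 and 2 tags, 14.7-fold lower (3.72 to 127), while Ddit4 had 14 and 46, 3.37-fold higher (1.82 to 6.63), and Bcl6 had 49 and 108, 2.26-fold higher (1.60 to 3.23).

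Of the estrogen-responsive list, also under the filter, Cyp1b1, an estrogen-hydroxylating enzyme, had 97 tags in Dox+ and none in Dox-. With 3 tags in place of 0, Cyp1b1 was 31.6-fold lower. Fos had 25 and 116 tags, 4.75-fold higher (3.06 to 7.65).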
